A study of Mus musculus with 12 samples.

Results

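RNA sequencing of cells grown from the paws of BALB/c mice was used to compare primed with non-primed paws of vehicle-treated animals. Monosodium urate (MSU) crystals, which form in joints when urate is in excess and drive gout, were injected into the left (primed) paw on day 0 and again on day 9. The right (non-primed) paw received them on day 9 alone, so the side of the body and priming cannot be told apart. All animals of both groups were given intraperitoneal injections without the BET inhibitor I-BET, which the other groups of the series received, and RNA was taken on day 18. Skin-flayed paws were digested with collagenase, cells of 2 to 3 paws were pooled, and the cells were grown for 5 passages, so each library stands for a pooled culture and not for tissue. The labels call the cultures synovial fibroblasts. The comparison holds 3 primed and 3 non-primed libraries, 6 of the 12 in the series, and 16459 of the 55413 genes in the deposited table, those with a mean value of at least 3 over the 12 libraries. The labels do not say that the libraries of a group come from different animals, and p-values measure the spread between these pooled cultures.

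Synovial fibroblasts make the matrix and the lubricating fluid of the joint and, when inflamed, release cytokines, prostaglandins and matrix-degrading enzymes. MSU crystals are taken up by macrophages, in which they activate the NLRP3 inflammasome and the release of interleukin-1 beta, and interleukin-1 is a strong activator of fibroblasts. Melanocytes, the pigment cells of skin, come from the neural crest. They synthesise melanin in melanosomes with the enzymes tyrosinase, Tyrp1 and Dct under the transcription factor Mitf, and they do not build a collagen matrix.

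The values are the authors' regularized log (rlog) expression values in log2 units, in which a difference of 1 is a doubling. They keep no read counts, so the depth behind them is unknown, and they shrink the differences of weakly expressed genes. Before any comparison the labelled cell type was checked against its markers. The mean over 12 fibroblast markers was 15.06, 15.03 and 15.45 in primed libraries 1, 2 and 3, against 10.28, 11.21 and 6.67 in non-primed libraries 1, 2 and 3. The mean over 15 melanocyte markers was 6.69, 6.39 and 6.21 in the primed libraries, against 13.81, 13.97 and 12.60 in the non-primed libraries. The 3 libraries labelled non-primed thus go against the label fibroblast: the mean of the pigment genes was higher and that of the fibroblast genes lower than in every primed library, and the fibroblast mean was lowest in non-primed library 3. The names primed and non-primed are used below as the labels give them. Among the vehicle libraries every non-primed and no primed one was of this kind, so priming and the melanocyte-rich state of the cultures cannot be told apart in any result that follows. The state was not limited to non-primed paws. Of the 3 primed-paw libraries from mice given I-BET, which are outside this comparison, libraries 2 and 3 had melanocyte means of 12.61 and 12.60 and fibroblast means of 9.21 and 9.67, and library 1 had 5.62 and 15.01. In bulk RNA, fewer cells of a type and less RNA per cell cannot be told apart either.

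The 6 libraries fell into groups of unequal tightness. Across the tested genes, Pearson correlations between primed libraries were 0.984 to 0.988, whereas non-primed libraries 1 and 2 correlated at 0.9902 with each other and at 0.956 and 0.948 with library 3. The first principal component of the 6 libraries held 84.7% of the variance. The median SD per gene was 0.203 in the primed group and 0.337 in the non-primed group.

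Expression differed in close to every other gene tested. With limma and an adjusted p under 0.05, 8051 of 16459 genes were called (48.9%), of which 4562 were higher in primed libraries (27.7%) and 3489 lower (21.2%). The counts of called genes in the lists below are to be read against these shares. The median difference over all tested genes was 0.05, and the median size of a difference was 0.71. Among the called genes 3637 were at least 1 log2 unit higher in primed libraries and 2086 at least 1 unit lower, and differences of at least 8 units were found in 15 genes that rose and 21 that fell. In 10153 genes (61.7%) the values of the groups did not overlap. The split depends on scaling. Quantile normalization moved the median of all genes to -0.236 and the calls to 3846 higher and 5308 lower, and centring the libraries on their medians moved it to -0.084 and the calls to 4074 and 4029. Without non-primed library 3 the calls were 5100 higher and 4056 lower.

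Among the 1331 called genes that were higher by at least 4 units, non-primed library 3 was the lowest of the non-primed libraries in 93.8%, and the order of the non-primed libraries was 2, 1, 3 from high to low in 78.1%. That is the order of their fibroblast marker means. Over all tested genes these shares were 47.4% and 25.7%. Non-primed library 3 was also the lowest of its group in 76% of the 192 genes that fell by at least 4 units, and in 35.1% of all genes that fell. The part of the fibroblast content in these rises was not tested beyond the second scale given further on.

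**Figure D1:**
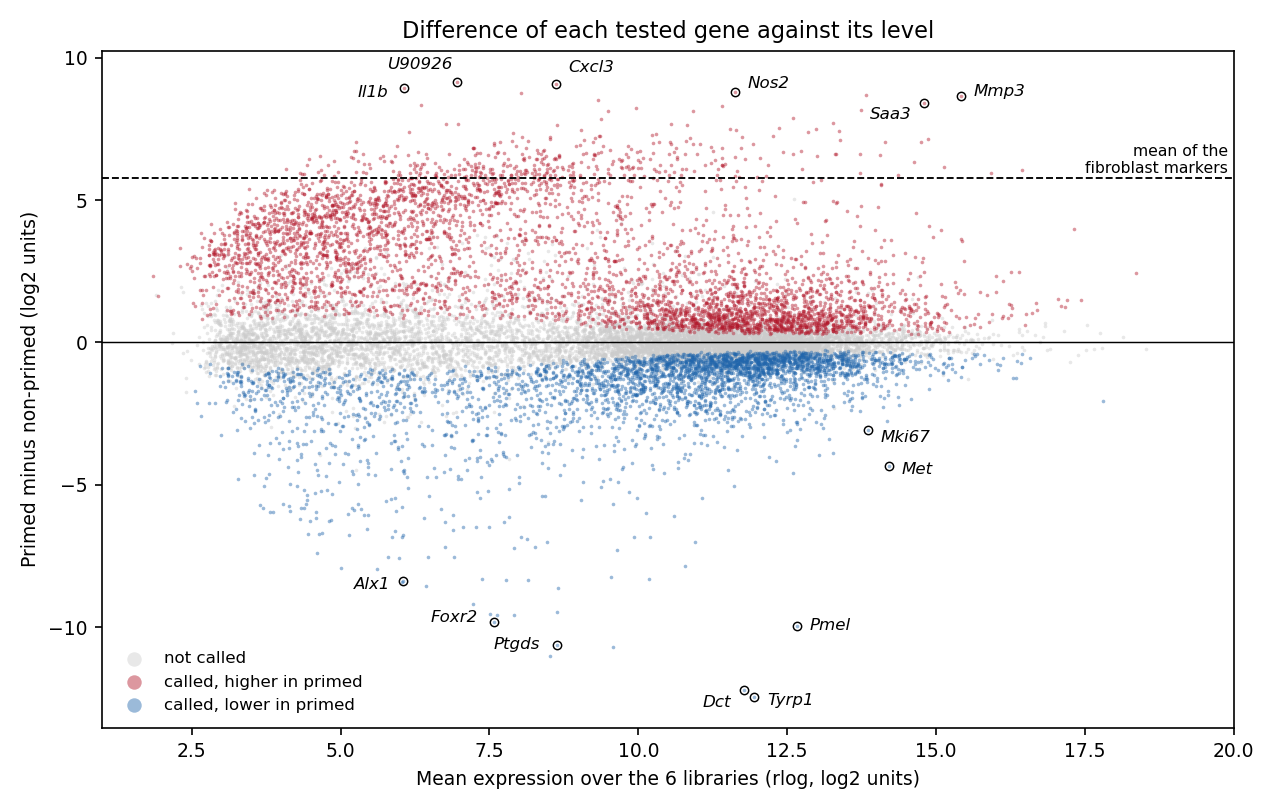
Difference of each tested gene (vertical axis, primed minus non-primed in log2 units) against its mean rlog value over the 6 libraries (horizontal axis). Red points are called higher and blue points called lower in primed libraries, grey points are not called, circles mark genes named in the text, and the dashed line is the mean difference of the fibroblast markers, 5.79. The extremes are inflammatory genes above, with U90926 at 9.17, and pigment genes below, with Tyrp1 at -12.46.

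All 12 fibroblast markers rose in primed libraries, with a median of 6.31 against 0.05 over all tested genes. Col1a1, the alpha-1 chain of type I collagen, stood at 17.88, 18.18 and 18.63 in primed libraries 1 to 3, against 12.87, 14.26 and 9.00 in non-primed libraries 1 to 3. The groups did not overlap, and non-primed library 3 was lowest by over 3 units. Col1a1 differed by 6.18 ± 1.25 (SE of the limma fit, n = 3 per group; adjusted p = 0.00731). Dcn, which encodes the collagen-binding proteoglycan decorin, differed by 7.51 ± 1.53 (adjusted p = 0.00754), and Lum, the related lumican, by 7.84 ± 1.07 (adjusted p = 0.00171). The smallest rises were those of Col5a1 (3.15 ± 0.18), Pdgfrb (3.38 ± 0.46) and Pdgfra (3.42 ± 0.52), the last being receptors for platelet-derived growth factors. Col5a1 was still at 12.64 to 13.10 in the non-primed libraries and hardly varied among them, unlike the other collagens. Leaving out each library in turn left 9 to 12 of the markers called, Col3a1, Col6a1 and Col6a2 being the ones lost.

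**Figure D2:**
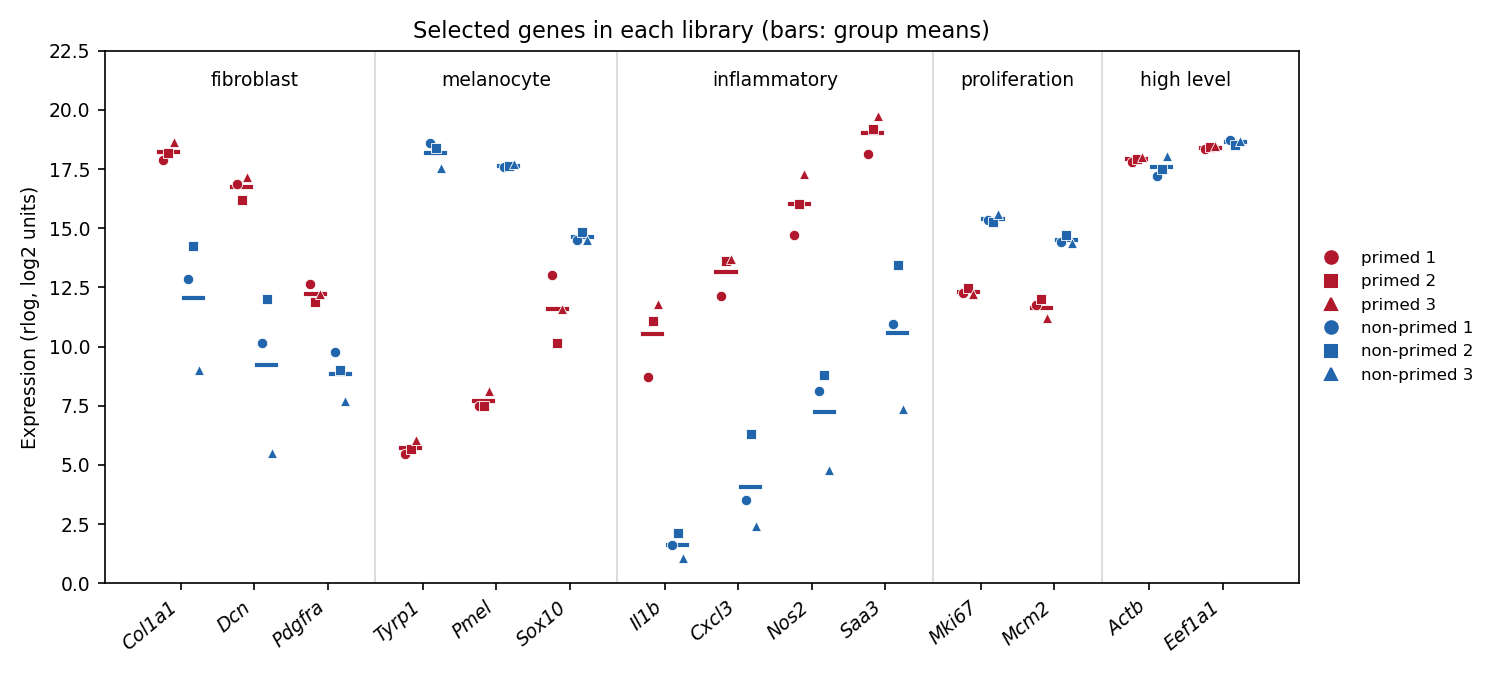
Expression (rlog, log2 units) of 14 genes in each library, primed in red to the left of non-primed in blue, with the library number given by the marker shape and the group mean by a bar. Col1a1 and Dcn were lowest in non-primed 3, Tyrp1 and Pmel were over 9 units lower in primed libraries, and Actb and Eef1a1 were not called.

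Transcription factors of mesenchyme were higher together with the matrix genes. Of 27 tested factors 22 rose and 1 fell, with a median of 5.46. Prrx1, a homeobox factor of limb mesenchyme, had 14.77, 14.74 and 14.92 in primed libraries, against 9.48, 9.98 and 4.50 in non-primed libraries. It differed by 6.82 ± 1.38 (limma, adjusted p = 0.00731). Meox2 (7.22 ± 0.76), Twist2 (6.62 ± 0.89) and Snai1 (6.44 ± 0.80), factors of mesoderm and of mesenchymal transition, rose as well. The member that fell was Lmx1b, the factor that specifies the dorsal side of the limb, which had 8.23, 8.61 and 7.76 in primed libraries against 9.95, 10.30 and 9.34 in non-primed libraries (-1.66 ± 0.35, adjusted p = 0.00811).

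Basement membrane genes rose in 14 of 18 cases with none lower (median 2.27), with Nid2, which encodes a nidogen that links laminin to collagen IV, at 6.06 ± 0.93 and Col4a1 at 4.79 ± 0.81. Of 20 integrin subunits 12 rose and 1 fell (median 1.71). Itga11, the collagen-binding subunit of fibroblasts, rose by 5.25 ± 0.60. Itga4, whose product binds Vcam1 and fibronectin, was the exception, with 8.99, 8.48 and 9.23 in primed libraries against 13.71, 12.70 and 12.05 in non-primed libraries (-3.92 ± 0.43, limma adjusted p = 0.000829). Cdh11, the cadherin that joins synovial fibroblasts, rose by 6.25 ± 1.18, and Gja1, which encodes connexin 43, by 4.92 ± 0.60. Gjb2, which encodes connexin 26, fell by 7.21 ± 1.21 on the log2 scale, with 4.0, 3.91 and 5.0 in primed libraries and 12.97, 13.01 and 8.57 in non-primed libraries.

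Melanin synthesis genes, Tyrp1 and Dct, had the largest falls. Tyrp1 (chromosome 4, 80834123 to 80851719, GRCm38), the melanin synthesis enzyme, had 5.46, 5.66 and 6.03 in primed libraries, against 18.62, 18.37 and 17.56 in non-primed libraries. The difference was -12.46 ± 0.30 (limma, adjusted p = 2.24e-05). Pmel, which encodes the fibril protein of the melanosome, had 7.47, 7.49 and 8.10 in primed libraries against 17.57, 17.65 and 17.71 in non-primed libraries. Here non-primed library 3 was as high as the others, unlike for collagen. Dct differed by -12.21 ± 0.21, Slc45a2, a melanosomal transporter, by -11.03 ± 0.75, Tyr, the tyrosinase gene, by -10.71 ± 0.30, and Mc1r, the receptor for melanocyte-stimulating hormone, by -9.46 ± 0.68. Of the 15 melanocyte markers 14 fell and 1 rose (median -7.53). The one that rose was Ednrb, an endothelin receptor that other cell types use too, with 9.35, 8.03 and 6.76 in primed libraries against 4.85, 5.31 and 3.28 in non-primed libraries (3.57 ± 0.81, adjusted p = 0.0114).

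Sox10 and Mitf, the transcription factors at the head of the melanocyte programme, were far from absent in the primed libraries. Sox10, also a factor of Schwann cells, had 13.04, 10.17 and 11.60 in primed libraries, against 14.52, 14.84 and 14.49 in non-primed libraries (-3.01 ± 0.66, limma adjusted p = 0.0101). Mitf had 12.06, 12.74 and 12.34 in primed libraries, against 14.88, 14.97 and 14.46 in non-primed libraries (-2.39 ± 0.22, adjusted p = 0.00049). The pigment enzymes, by contrast, were at 3.94 to 6.03 in primed libraries for Tyr, Tyrp1 and Dct. These melanin enzymes thus differed by over 10 units where Sox10 and Mitf differed by -3.01 and -2.39. Pax3, a further factor of melanocyte precursors, differed by -6.82.

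The promoters of these genes are shown because Mitf binds the core CATGTG of the M-box, a motif known from melanin synthesis genes. Below are the 100 bases before the RefSeq start (GRCm38.p6, 5′ to 3′ on the strand of the gene), or 250 for Dct, with CATGTG or its reverse complement CACATG in capitals. Tyrp1 is at chr4:80834113-80834212 on the plus strand, Tyr at chr7:87493513-87493612 on the minus strand, Mc1r at chr8:123406982-123407081 on the plus strand, Tspan10 at chr11:120442531-120442630 on the plus strand and Dct at chr14:118052247-118052496 on the minus strand.
Tyrp1: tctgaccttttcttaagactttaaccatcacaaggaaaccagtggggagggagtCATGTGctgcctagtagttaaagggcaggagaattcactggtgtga
Tyr: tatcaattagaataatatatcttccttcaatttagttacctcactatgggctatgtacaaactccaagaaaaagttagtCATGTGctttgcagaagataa
Mc1r: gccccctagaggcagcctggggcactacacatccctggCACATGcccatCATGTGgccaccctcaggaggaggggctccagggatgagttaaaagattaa
Tspan10: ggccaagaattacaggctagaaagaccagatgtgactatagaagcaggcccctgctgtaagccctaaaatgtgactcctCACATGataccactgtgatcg
Dct: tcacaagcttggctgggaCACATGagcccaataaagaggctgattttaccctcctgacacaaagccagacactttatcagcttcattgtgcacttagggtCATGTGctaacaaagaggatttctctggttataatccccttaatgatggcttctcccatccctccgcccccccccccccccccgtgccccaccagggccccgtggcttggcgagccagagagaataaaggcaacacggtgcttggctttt
The motif begins 46 bases before the start in Tyrp1, 21 in Tyr and in Tspan10, 62 and 51 in Mc1r, and 232 and 150 in Dct. It was found within 250 bases before the start, on either strand, in 5 of the 10 largest falls and 2 of the 11 largest rises with a RefSeq promoter, in 12.2% of 27025 promoters of that length and in 7.5% of those of 11613 tested genes. A SOX motif, ACAANG, searched in the same way on both strands, was found in 3 of the 10 falls and 5 of the 11 rises, in 36.6% of all promoters and in 28.9% of those of tested genes. Slc45a2, Pmel and Nos2 had no entry. These matches are descriptions of the letters and not measured binding sites.

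The other members of the 12 largest falls were not all pigment genes. Ptgds, the prostaglandin D2 synthase, had 3.47, 3.32 and 3.16 in primed libraries, against 14.03, 14.90 and 12.88 in non-primed libraries (-10.62 ± 0.51, limma adjusted p = 0.000124). Foxr2, a forkhead factor on the X chromosome, had 2.58, 2.65 and 2.72 in primed libraries against 12.39, 12.49 and 12.58 in non-primed libraries (-9.84 ± 0.25, adjusted p = 2.64e-05). Its level was nearly the same in the 3 non-primed cultures. Tspan10, a tetraspanin (-9.58 ± 0.72), Pianp (-9.58 ± 0.75), Fkbp6, a member of the immunophilin family (-9.54 ± 0.41), and Car14, a membrane carbonic anhydrase (-9.20 ± 1.05), completed the group.

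Factors of the neural crest split. Of 18 tested, 7 fell and 5 rose (median -0.55). Alx1, a homeobox factor of cranial neural crest, had 2.15, 1.69 and 1.76 in primed libraries, against 10.61, 10.21 and 9.91 in non-primed libraries (-8.38 ± 0.34, limma adjusted p = 9.91e-05). Pax3, a factor of melanocyte and muscle precursors, differed by -6.82 ± 0.56. The 5 that rose were Tfec (5.64 ± 0.75), a relative of Mitf, Id4 (5.51 ± 0.82), Msx1 (5.46 ± 0.45), Sox8 (2.43 ± 0.58) and Snai2 (1.34 ± 0.26). Of 20 genes of melanosome transport and structure 15 fell and 4 rose (median -0.81). Rab38, a small GTPase that delivers enzymes to melanosomes, fell by 7.0 ± 0.28 on the log2 scale, and Rab27a, which tethers melanosomes to actin, fell by 5.25 ± 0.92. Slc7a11, a cystine transporter of pigment cells and of the oxidative stress response, was the largest of the 4 rises (3.80 ± 1.00), with its call lost without primed library 1 or primed library 2 (limma adjusted p up to 0.0652). Without primed library 2, 1 of the 4 rises was called.

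The 12 largest rises included interleukin-1, chemokine and metalloproteinase genes. Il1b (chromosome 2, 129364570 to 129371139, GRCm38) had 8.70, 11.07 and 11.80 in primed libraries, against 1.61, 2.12 and 1.05 in non-primed libraries (8.93 ± 0.82, limma adjusted p = 0.000497). Every primed library was over 6 units above every non-primed one, and primed library 1 was the lowest of its group. Cxcl3, a neutrophil-attracting chemokine, had 12.14, 13.63 and 13.71 in primed libraries, against 3.51, 6.29 and 2.43 in non-primed libraries (9.08 ± 1.01, adjusted p = 0.000847). Il1a, the other interleukin-1, had 11.86, 12.36 and 13.02 in primed libraries, against 3.34, 5.86 and 1.78 in non-primed libraries (8.75 ± 1.00, adjusted p = 0.000927). Nos2, the inducible nitric oxide synthase, had 14.72, 16.04 and 17.30 in primed libraries, against 8.10, 8.79 and 4.78 in non-primed libraries (8.80 ± 1.14, adjusted p = 0.00142). For all 4 genes primed library 1 was the lowest of the primed and non-primed library 3 the lowest of all.

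The rest of the 12 largest rises were U90926 (9.17 ± 0.85), the collagenase Mmp13 (8.71 ± 1.52), the stromelysins Mmp3 (8.65 ± 1.36) and Mmp10 (8.24 ± 1.47), Thbs4, a matrix thrombospondin (8.51 ± 0.83), Saa3, a serum amyloid A made outside the liver (8.43 ± 1.44), Clec4e, the lectin receptor Mincle (8.35 ± 0.86), and Il1rl1, the receptor for interleukin-33 (8.32 ± 1.48). Their limma adjusted p-values ran from 0.000501 for U90926 to 0.00449 for Mmp10. Mmp3 had 18.72, 20.06 and 20.47 in primed libraries, against 11.58, 13.67 and 8.06 in non-primed libraries. The call of each of the 24 largest rises and falls was kept whichever library was left out.

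Motifs of the inflammatory factors AP-1 and NF-kB were looked for in the same way, since both are known to act at promoters of metalloproteinases and chemokines. The 100 bases before the RefSeq start (GRCm38.p6) carry TGANTCA, the AP-1 motif, in capitals for Il1a at chr2:129309973-129310072 on the minus strand, Mmp13 at chr9:7272414-7272513, Mmp3 at chr9:7445722-7445821 and Mmp10 at chr9:7502242-7502341, the last 3 on the plus strand. For Cxcl3 at chr5:90786001-90786100 on the plus strand the capitals mark an NF-kB motif, GGGA, any base and TTTCC, on either strand.
Il1a: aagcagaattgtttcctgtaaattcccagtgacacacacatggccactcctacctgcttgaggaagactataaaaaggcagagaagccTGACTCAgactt
Mmp13: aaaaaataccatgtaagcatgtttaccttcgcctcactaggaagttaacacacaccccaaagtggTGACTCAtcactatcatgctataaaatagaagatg
Mmp3: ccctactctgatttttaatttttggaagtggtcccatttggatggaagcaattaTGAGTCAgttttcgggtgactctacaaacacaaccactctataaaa
Mmp10: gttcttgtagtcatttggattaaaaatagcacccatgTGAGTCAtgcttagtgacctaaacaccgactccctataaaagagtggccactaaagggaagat
Cxcl3: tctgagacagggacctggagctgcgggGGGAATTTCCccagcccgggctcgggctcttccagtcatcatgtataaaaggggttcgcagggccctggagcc
The AP-1 motif begins 12 bases before the start in Il1a, 35 in Mmp13, 46 in Mmp3 and 63 in Mmp10, and the NF-kB motif 73 bases before the start in Cxcl3. Within 250 bases TGANTCA was found in 4 of the 11 largest rises with a RefSeq promoter, in 1 of the 10 largest falls (Ptgds) in 6.87% of all promoters and in 4.62% of those of tested genes. The NF-kB motif was found in 1 of 11, in none of the 10, in 0.337% of all promoters and in 0.336% of those of tested genes. In Mmp10 the AP-1 match shares bases with a CATGTG match, and nothing about the factors themselves follows from these letters.

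Other cytokines were higher as well. Il6, an inducer of the acute phase response, had 14.60, 15.15 and 15.20 in primed libraries, against 7.49, 9.12 and 3.94 in non-primed libraries (8.13 ± 1.22, limma adjusted p = 0.00233). Cxcl1, a neutrophil chemokine, had 16.11, 17.09 and 16.94 in primed libraries against 11.10, 11.52 and 9.62 in non-primed libraries (5.96 ± 0.52, adjusted p = 0.000436). Tnf, the tumour necrosis factor gene, rose less, with 7.30, 9.49 and 8.63 in primed libraries against 6.66, 5.37 and 4.49 in non-primed libraries (2.97 ± 0.75, adjusted p = 0.0176). The groups of Tnf did not overlap, but its call was lost without primed library 2, primed library 3 or non-primed library 2 (adjusted p up to 0.0615). Tnfsf11, which encodes RANKL, the inducer of osteoclasts, differed by 6.69 ± 0.58 and its decoy receptor Tnfrsf11b by 4.33 ± 0.91.

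Receptors that sense crystals and microbes rose in 11 of 18 cases and fell in 1 (median 1.82). Cd14, a co-receptor of the toll-like receptors that also binds urate crystals, had 11.05, 11.42 and 12.27 in primed libraries, against 4.06, 6.18 and 2.38 in non-primed libraries (7.37 ± 0.94, limma adjusted p = 0.00134). Nod2, a sensor of bacterial cell wall, rose by 6.28 ± 0.66, and the scavenger receptor Msr1 by 5.07 ± 1.05. The exception was Ticam1, the adaptor TRIF, at -0.67 ± 0.15. Nlrp3, the inflammasome sensor of MSU crystals, had 7.82, 8.69 and 8.89 in primed libraries, against 3.71, 4.01 and 2.53 in non-primed libraries (5.05 ± 0.52, adjusted p = 0.000666). Casp1, the protease that activates interleukin-1 beta, differed by 3.91 ± 1.02 (adjusted p = 0.0194), a call lost without primed library 1 (adjusted p = 0.0661).

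Cytokine receptors rose in 18 of 23 cases with none lower (median 1.73). After Il1rl1 the largest rises were those of Tnfrsf1b, a tumour necrosis factor receptor (6.43 ± 1.19), Il1r1, the signalling receptor of interleukin-1 (5.70 ± 0.49), and Il4ra (5.34 ± 0.85). Il1r1 had 9.60, 10.14 and 10.13 in primed libraries, against 4.60, 4.89 and 3.28 in non-primed libraries. Of 17 genes of JAK-STAT signalling 9 rose and 1 fell (median 0.87), a share called of 58.8% against 48.9% over all tested genes. Among the rises were the feedback inhibitors Socs3 (3.21 ± 0.41), Socs2 (2.34 ± 0.22) and Socs1 (2.26 ± 0.31). Stat5b fell by 0.87 ± 0.27 on the log2 scale (limma adjusted p = 0.0339), a call kept only when non-primed library 3 was the one left out. Of 20 immediate early and AP-1 genes 8 rose and 1 fell (median 0.98), a share called of 45% against 48.9% over all tested genes. Fosl1, an AP-1 subunit, had 12.81, 13.18 and 13.33 in primed libraries, against 7.68, 8.33 and 3.39 in non-primed libraries (6.63 ± 1.23, adjusted p = 0.00528). Fosl2 rose by 2.84 ± 0.17, and the nuclear receptor Nr4a3 fell by 3.34 ± 0.67 on the log2 scale. The classical member Fos did not pass the test, at -0.93, and is named here after its value was seen.

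Enzymes downstream of these signals were higher too. Of 17 prostaglandin and leukotriene genes 13 rose and 2 fell (median 3.63). Ptgs2, the inducible cyclooxygenase, had 16.52, 17.22 and 17.65 in primed libraries, against 10.83, 12.03 and 5.36 in non-primed libraries (7.72 ± 1.64, limma adjusted p = 0.00877). Ptges, which completes the synthesis of prostaglandin E2, rose by 7.64 ± 1.23, and Ptgis, the prostacyclin synthase, by 6.26 ± 0.55. Ptgds went the other way, as given above, and so did Lta4h, a leukotriene enzyme, at -0.48 ± 0.13, a call kept only without non-primed library 3. All 11 tested acute phase and antimicrobial genes rose (median 6.83), with Lcn2, which encodes an iron-scavenging lipocalin, at 7.88 ± 1.50, haptoglobin (Hp) at 7.68 ± 1.10 and Ptx3, a soluble pattern receptor, at 7.52 ± 1.07. The other 5 genes of that list were below the expression filter. In tryptophan, itaconate and arginine metabolism 6 of 9 tested genes rose and 1 fell (median 4.33). Slc7a2, an arginine transporter, rose by 7.51 ± 1.40 and Acod1, the itaconate synthase, by 6.84 ± 0.84. The tryptophan enzyme Ido2 was not called (1.90), and 5 more genes of this list were below the filter, from Kmo (-0.05) to Ido1 (4.61). Asl, which makes arginine, was the fall (-0.54 ± 0.14), a call lost without primed library 1, non-primed library 1 or non-primed library 2 (limma adjusted p up to 0.0671).

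Antigen presentation genes rose in 17 of 19 cases with none lower (median 2.91). H2-Q7, a class I gene, rose by 7.03 ± 1.06, H2-Ab1, a class II gene, by 6.67 ± 0.98 and Psmb8, an immunoproteasome subunit, by 6.30 ± 1.05. Other genes of class II presentation differed less. H2-Eb1 rose by 2.53, Cd74 was not called (-0.05), and H2-Aa (1.25) and Ciita (0.65) were below the expression filter. Genes of the H2 family share sequence, so that counting may divide reads between them. Adhesion receptors for leukocytes rose in 9 of 14 cases and fell in 1 (median 1.58). Icam1 had 11.86, 12.28 and 11.65 in primed libraries, against 5.97, 7.04 and 3.20 in non-primed libraries (6.53 ± 0.93, limma adjusted p = 0.00199). Icam2 was the fall at -3.11 ± 1.04 (adjusted p = 0.0464), a call kept only without non-primed library 3. The melanocyte marker means were 6.21 to 6.69 in the primed libraries and 12.60 to 13.97 in the non-primed libraries, and the part of pigment cells in these inflammatory lists was not tested.

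Enzymes that break down purines to urate, the substance of the crystals, rose in 8 of 12 cases with none lower (median 1.67). Xdh, xanthine dehydrogenase, which makes urate, had 14.39, 14.62 and 14.15 in primed libraries, against 9.37, 9.93 and 5.62 in non-primed libraries (6.08 ± 1.07, limma adjusted p = 0.00437). Nt5e, the ectoenzyme CD73 that makes adenosine and also a fibroblast surface marker, rose by 7.15 ± 1.03. Gda, guanine deaminase, rose by 5.48 ± 1.01 and Ampd3, an AMP deaminase, by 4.05 ± 0.74. In serine, one-carbon and purine synthesis 1 of 22 genes was higher and 9 were lower (median -0.46). The share called was 45.5%, against 48.9% over all tested genes. The falls numbered 6 without primed library 1 or primed library 3, and 12 without non-primed library 3. Aldh1l2 (-2.70 ± 0.53) and Mthfd2 (-1.88 ± 0.29), mitochondrial folate enzymes, were the largest falls in this list. Impdh1, which makes guanine nucleotides, was the rise (1.05 ± 0.15).

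**Figure D3:**
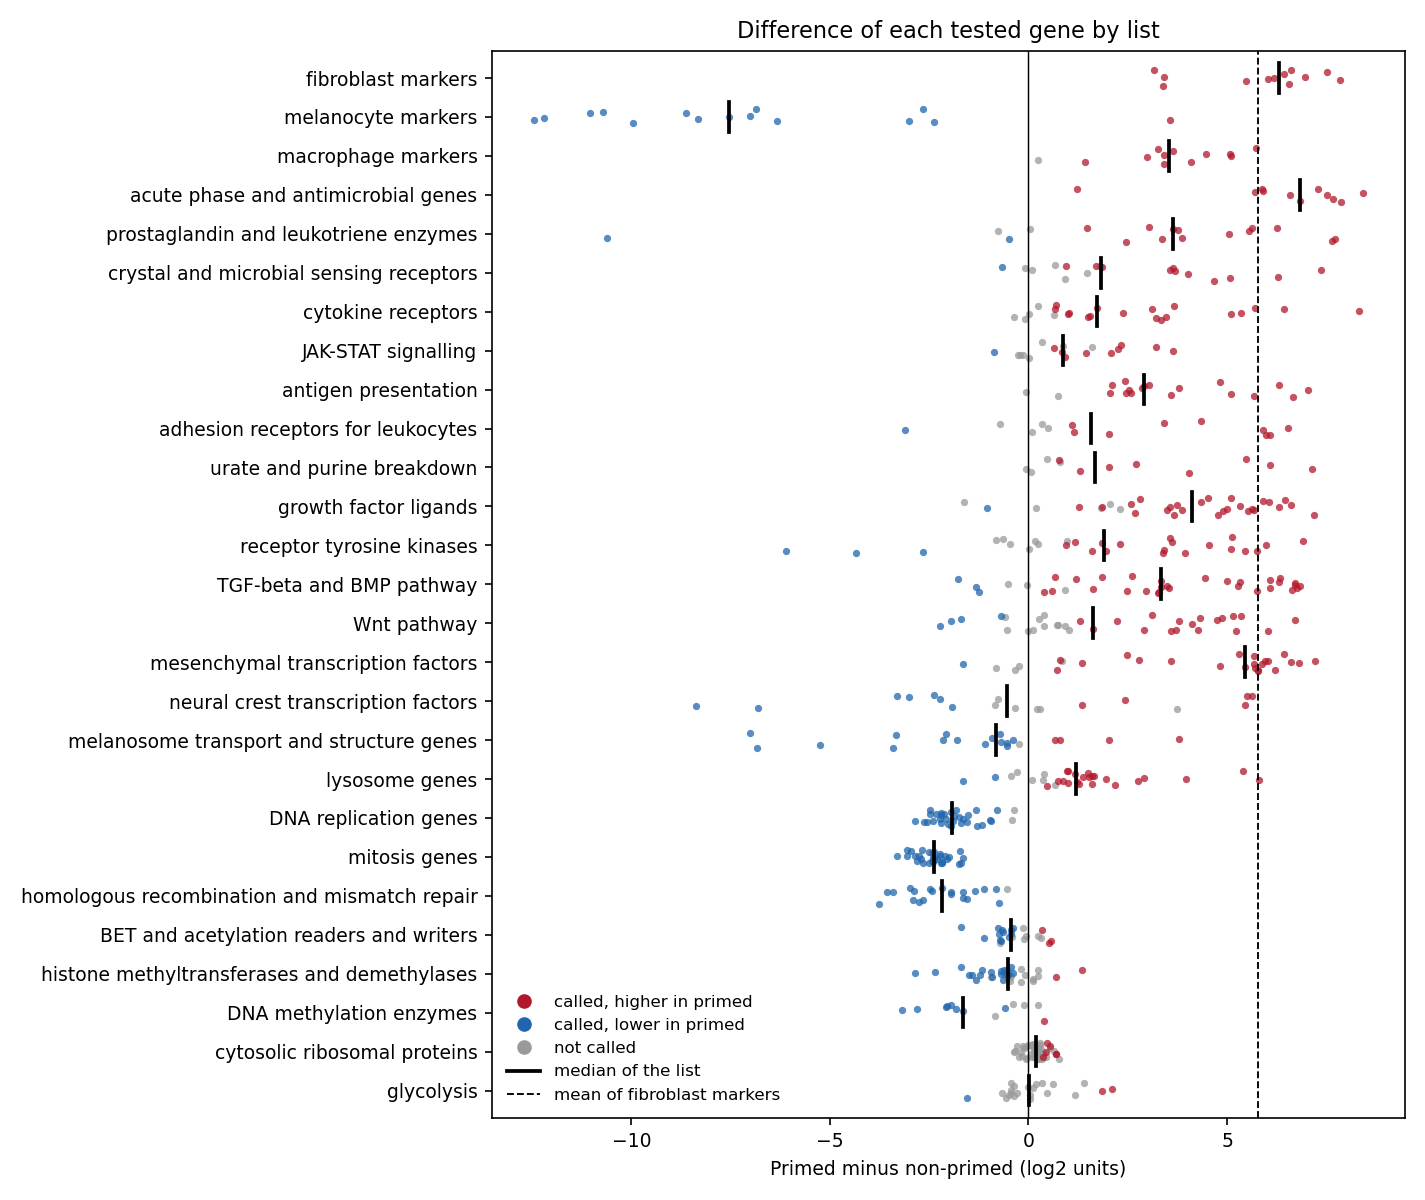
Difference (horizontal axis, primed minus non-primed in log2 units) of every tested gene in 27 of the 66 lists, with called genes in red (higher) or blue (lower), other genes in grey, the list median as a black bar and the mean fibroblast marker difference of 5.79 as a dashed line. The acute phase list has its median right of that line, at 6.83, and the 3 proliferation and repair lists lie between -1.93 and -2.39.

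Markers of other cells that a paw digest can hold were examined as well. Of 12 tested macrophage markers 11 rose (median 3.53), or 7 without primed library 2 or primed library 3. Adgre1, which encodes F4/80, had 9.88, 10.95 and 11.71 in primed libraries, against 5.98, 6.77 and 2.62 in non-primed libraries (5.72 ± 1.11, limma adjusted p = 0.00618). Csf1r rose by 5.10 ± 0.73 and Itgam, the integrin CD11b, by 5.07 ± 0.74. The mean over this list was 7.58, 7.79 and 8.36 in primed libraries, against 4.98, 5.66 and 3.26 in non-primed libraries. Of 9 neutrophil markers 2 passed the expression filter and rose, Camp (6.66 ± 0.89) and S100a8 (5.91 ± 0.88). The others were below the filter, with differences from -0.22 (Elane) to 3.24 (Csf3r). None of 7 mast cell and none of 9 lymphocyte markers passed the expression filter. Of 8 tested endothelial markers 5 rose (median 2.40), with Erg at 3.96 ± 0.38 and Tek at 3.81 ± 0.43. Pecam1 (0.20), Vwf (0.12) and Eng (-0.38) were not called. The 4 endothelial markers below the expression filter differed by 0.55 (Cldn5) to 3.76 (Cdh5). All 4 tested adipocyte markers rose, with the fatty acid carrier Fabp4 at 6.43 ± 1.03, while Adipoq (0.13), Lep (0.18) and Plin1 (-0.89) were below the filter. Schwann cell markers split 2 higher and 2 lower of 12. Their median was 0.48 and changed sign to -0.05 with quantile normalization and with array weights, and their calls ranged over 1 to 4 higher and 0 to 2 lower as single libraries were left out. Keratinocyte markers passed the filter in 4 of 12 cases, with Krt10 higher by 4.93 ± 0.49 and Cdh1 lower (-1.88 ± 0.63, adjusted p = 0.0472), the Cdh1 call being kept only without non-primed library 3. The part of macrophages in the interleukin-1 and chemokine differences was not tested.

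Growth factor ligands rose in 26 of 32 cases and fell in 1 (median 4.11). Ereg, which encodes epiregulin, had 13.81, 15.25 and 14.33 in primed libraries, against 8.45, 9.65 and 3.76 in non-primed libraries (7.18 ± 1.45, limma adjusted p = 0.00734). Fgf7, which acts on epithelium, rose by 6.32 ± 1.07. Egf fell by 1.04 ± 0.31 on the log2 scale, a call kept only without non-primed library 3. Receptor tyrosine kinases rose in 18 of 28 cases and fell in 3 (median 1.90). Egfr, the receptor for Ereg, rose by 6.90 ± 1.15. Met, the receptor for hepatocyte growth factor, was the most tightly measured of the falls, with 12.10, 12.24 and 11.80 in primed libraries against 16.55, 16.25 and 16.37 in non-primed libraries (-4.34 ± 0.15, adjusted p = 6.88e-05). Epha3, an ephrin receptor, had 7.87, 7.44 and 7.33 in primed libraries against 13.89, 13.22 and 13.81 in non-primed libraries (-6.10 ± 0.24, adjusted p = 9.87e-05). Kit, the stem cell factor receptor of melanocytes, differed by only -2.65 ± 0.76 (adjusted p = 0.0269, up to 0.0857 with 1 library left out).

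Signalling pathways of stroma were higher as well. Genes of the TGF-beta and BMP pathway rose in 29 of 35 cases and fell in 3 (median 3.34). Fst (6.76 ± 0.96), which encodes follistatin, a secreted antagonist of activins, and Inhba, an activin subunit (6.71 ± 1.58), were among the largest rises. The falls were Id2 (-1.77 ± 0.22), a target of BMP signals, Smad5 (-1.32 ± 0.12), which carries them, and the pseudoreceptor Bambi (-1.25 ± 0.25). Of 33 Wnt pathway genes 18 rose and 4 fell (median 1.62). The potentiator Rspo2 (6.70 ± 0.91) and the ligand Wnt5a (5.36 ± 1.22) rose. The falls were Axin2, a common target of the pathway (-1.69 ± 0.28), Lef1 (-2.22 ± 0.74), Fzd4 (-1.94 ± 0.54) and Lrp6 (-0.70 ± 0.15), and 2 of the 4 remained without primed library 2, primed library 3 or non-primed library 1. Notch genes rose in 9 of 19 cases and fell in 2 (median 1.36), a share called of 57.9% against 48.9% over all tested genes. The Notch ligand Jag2 was lower (-2.77 ± 0.34) and Dlk1 higher (4.36 ± 0.42), and 1 fall remained without primed library 2 or primed library 3. Of 13 genes of the Hippo pathway and its targets 8 rose (median 2.01), with Ccn2, a matricellular factor, at 5.52 ± 0.70. Axl, a receptor kinase of the same list, had 15.91 to 16.00 in primed libraries against 11.76 to 12.24 in non-primed libraries (3.95 ± 0.14, limma adjusted p = 6.88e-05).

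Hox genes record the position along the body and limb at which a cell arose, with high numbers at the paw end. The clusters differed in direction. All 5 tested HoxC genes rose (median 4.57), as did 6 of 7 HoxD genes (median 4.83), while 5 of 7 HoxB genes fell and none rose (median -2.74). Below the expression filter were 4 HoxC genes (1.96 to 4.69), the HoxD genes Hoxd1 (0.12) and Hoxd3 (-2.52), and 3 HoxB genes (-3.45 to 1.47). That filter is a mean over 12 libraries, so a gene can pass it through the libraries where it is high. Hoxa13, the gene of the paw end in cluster A, had 10.34, 10.47 and 10.25 in primed libraries, against 5.39, 5.61 and 2.71 in non-primed libraries (5.79 ± 0.78, limma adjusted p = 0.0016). Hoxd10 rose by 5.65 ± 0.71 and Hoxc10 by 5.63 ± 0.40. Hoxa9 was tight in both groups, with 10.55, 10.74 and 10.72 in primed libraries against 7.86, 7.87 and 7.83 in non-primed libraries (2.82 ± 0.18, adjusted p = 0.000257). The direction did not follow the number throughout. Hoxa3 (-1.49 ± 0.28) and Hoxd4 (-1.77 ± 0.38), low-numbered genes, fell, but Hoxa4 (1.43) and Hoxc4 (2.37) rose. Among high-numbered genes Hoxa10 (0.79) was not called, and Hoxd13 had the smallest rise of the HoxD genes (1.77). Hoxb9 fell (-2.74), a call kept only without non-primed library 3. Hoxb8 had 5.48, 3.18 and 3.62 in primed libraries, against 8.52, 7.88 and 7.11 in non-primed libraries (-3.74 ± 0.70, adjusted p = 0.00528). HoxA genes were called in 5 cases as higher and 1 as lower of 11 (median 0.79). That is a share called of 54.5%, against 48.9% over all tested genes. Without primed library 3, 2 HoxA genes were higher and 1 HoxB gene lower.

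**Figure D4:**
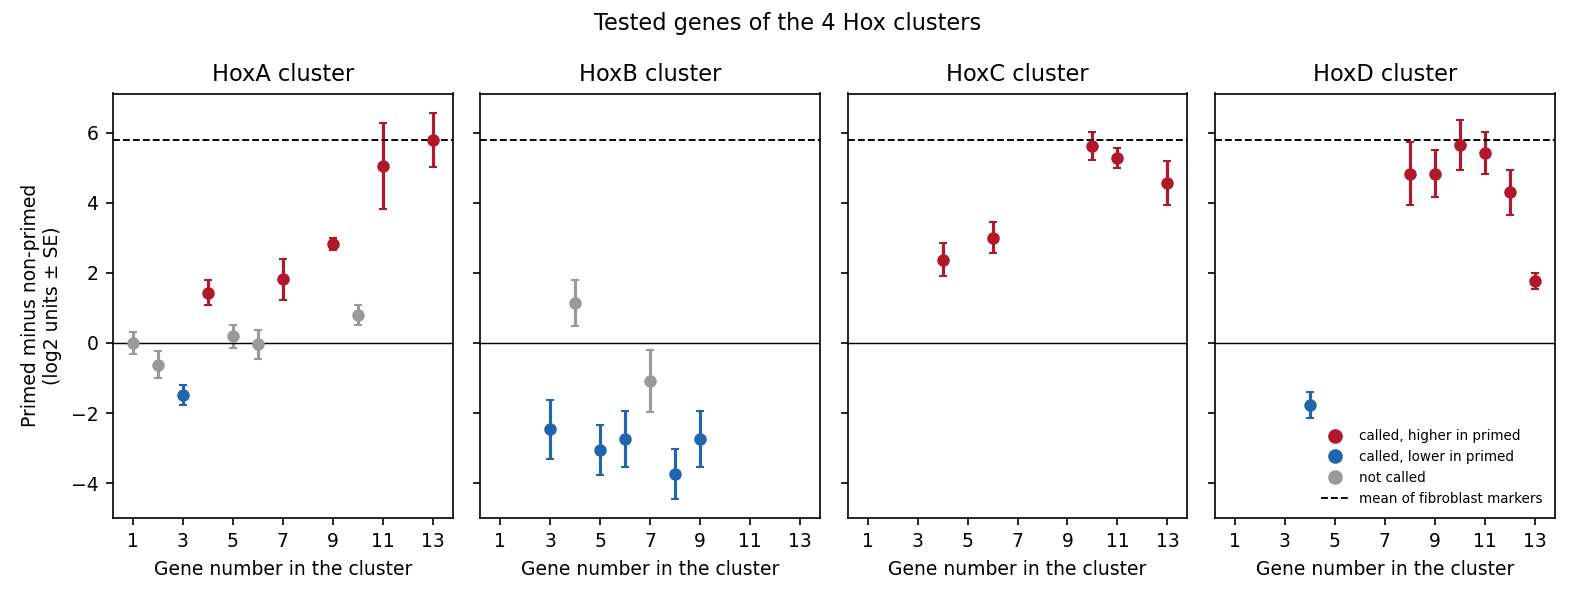
Difference (vertical axis, primed minus non-primed in log2 units, with SE) of each tested Hox gene against its number in the cluster (horizontal axis), with a panel per cluster. Genes called higher are red, genes called lower blue and others grey, and the dashed line is the mean fibroblast marker difference. HoxC and high-numbered HoxA and HoxD genes lie above 0 and most HoxB genes below it, from Hoxa13 at 5.79 to Hoxb8 at -3.74.

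Genes of proliferation were lower in primed libraries with little spread. All 32 mitosis genes fell (median -2.39), as did 30 of 32 DNA replication genes (median -1.93) and 20 of 21 genes of homologous recombination and mismatch repair (median -2.17), with none higher in any of the 3 lists. Mki67, the proliferation marker, had 12.28, 12.48 and 12.20 in primed libraries, against 15.33, 15.26 and 15.60 in non-primed libraries (-3.07 ± 0.14, limma adjusted p = 0.000111). Mcm2, a subunit of the replicative helicase, had 11.74, 11.99 and 11.20 in primed libraries, against 14.41, 14.71 and 14.39 in non-primed libraries (-2.86 ± 0.22, adjusted p = 0.000326). Brca1, of homologous recombination, differed by -3.77 ± 0.33, and Fancd2, of crosslink repair, by -3.57 ± 0.27. Non-primed library 3, which stood apart in the matrix and cytokine genes, did not stand apart here: the mitosis list averaged 10.78, 10.88 and 10.38 in primed libraries, against 13.08, 13.12 and 13.05 in non-primed libraries 1, 2 and 3.

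Inhibitors of the cell cycle did not move as a block. Of 27 cyclin-dependent kinase inhibitors and p53 targets 14 rose and 4 fell (median 0.99). Cdkn2b rose by 5.64 ± 1.17, Pmaip1, a p53 target that promotes cell death, by 5.68 ± 1.31 and Gadd45g by 2.75 ± 0.27. Cdkn2a, which encodes p16 and Arf and is known for its rise in senescent cultures, had 11.76, 11.75 and 12.47 in primed libraries, against 9.01, 9.05 and 3.60 in non-primed libraries (4.78 ± 1.44, limma adjusted p = 0.033). Its call was lost when any primed library was left out, with a limma adjusted p of up to 0.0987. Cdkn2d (-1.82 ± 0.17), Sesn1 (-1.57 ± 0.22), Cdkn1b (-1.44 ± 0.25) and Cdkn2c (-1.28 ± 0.25) fell.

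Readers and writers of chromatin marks were measured because the series tests a BET inhibitor. Of 22 BET and acetylation genes 12 fell and 3 rose (median -0.44). Brd2 (-0.41 ± 0.38) and Brd3 (-0.06 ± 0.11), which encode BET proteins, did not pass the test. Kat2b, an acetyltransferase, had the largest fall of the list (-1.69 ± 0.12). Without primed library 1 or primed library 3 the falls numbered 7, and without primed library 3 no rise was called. Of 34 histone methyltransferases and demethylases 20 fell and 2 rose (median -0.52), with Ezh2, the Polycomb methyltransferase, at -2.86 ± 0.20 and Nsd2 at -2.36 ± 0.18, while Nsd1 rose by 1.36 ± 0.20. Among 13 DNA methylation genes 8 fell and 1 rose (median -1.64), a rise kept only when non-primed library 1 was left out, with Tet1, which oxidises methylcytosine, at -3.18 ± 0.43, and Dnmt1 and its partner Uhrf1, which copy methylation during replication, at -2.08 ± 0.15 and -2.81 ± 0.25. Among 24 chromatin remodellers 14 fell and 3 rose (median -0.54), or fell in 9 without primed library 2 or primed library 3. Smarca1 was the largest rise (4.51 ± 0.41) and Hells the largest fall (-2.42 ± 0.22). The fall of the proliferation genes moved with these lists, and its part in them was not tested.

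Housekeeping groups were near 0. Of 49 cytosolic ribosomal protein genes 6 rose and none fell, and their median of 0.20 became -0.18 with quantile normalization; without primed library 2 none rose, and without non-primed library 3 4 fell. The median of 30 proteasome genes, 0.13, became -0.02, with 7 higher and 1 lower, or 4 higher without primed library 2. Glycolysis genes were called in 3 of 22 cases and had a median of 0.01 that turned to -0.45 with quantile normalization, to -0.13 with median-centred libraries and to -0.38 without non-primed library 3, where 6 genes fell in place of 1. Slc2a1, the glucose transporter, rose by 2.11 ± 0.45 and Ldhb, a lactate dehydrogenase, fell by 1.54 ± 0.32 on the log2 scale. Of 27 tricarboxylic acid cycle genes 11 fell and 5 rose (median -0.23), a share called of 59.3% against 48.9% over all tested genes. Idh2, the mitochondrial isocitrate dehydrogenase, had 11.27, 11.29 and 11.14 in primed libraries against 14.20, 14.14 and 13.92 in non-primed libraries (-2.85 ± 0.12, limma adjusted p = 0.000106). Pdk4, which restrains pyruvate oxidation, was higher by 5.20 ± 0.94. Without primed library 1 or primed library 2 the rises of this list numbered 2. Lysosome genes rose in 22 of 30 cases and fell in 2 (median 1.19), with the matrix-degrading protease Ctsk at 5.81 ± 1.12 and Tfeb, a master factor of lysosome genes, lower (-1.66 ± 0.37), and 1 fall remained without non-primed library 1 or any primed library. Among highly expressed genes that did not pass were Eef1a1 (-0.24 ± 0.16), Actb (0.33 ± 0.25), Gapdh (-0.67 ± 0.28) and Mtor (-0.13 ± 0.15). Actb and Gapdh were called without non-primed library 3, and Gapdh also without primed library 3.

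Further lists moved less or in part. MAPK feedback and target genes rose in 13 of 19 cases with none lower (median 1.43, or 0.81 without non-primed library 3), with the ETS factor Etv4 at 5.07 ± 0.74. Histone deacetylases and sirtuins split 3 and 3 of 18, and their median of 0.21 became -0.03 with quantile normalization. Hdac7 rose by 1.79 ± 0.16. Of 18 heat shock protein genes 6 rose and 4 fell (median 0.27), a share called of 55.6% against 48.9% over all tested genes. Hspa1a, an inducible Hsp70 with a near-identical copy in Hspa1b, rose by 5.56 ± 0.55 and Hspb8 by 5.33 ± 0.76, and Hspd1, the mitochondrial chaperonin, differed by -0.98 ± 0.21. Cholesterol synthesis genes were called higher in 6 and lower in 3 of 23 cases (median -0.03, with a sign that changed when single libraries were left out), and 2 remained higher without primed library 2 or non-primed library 1. Dhcr7, the last enzyme of that pathway, differed by -1.95 ± 0.14. In the amino acid stress response, Slc7a5, a transporter of large neutral amino acids, was the single fall of 15 genes (-3.09 ± 0.25) and 5 rose, or 2 without primed library 1. Skeletal muscle markers rose in 5 of 6 tested cases (median 3.74), with Acta1 at 5.11 ± 0.74, while Des was not called (-1.22). The other 3 muscle markers were below the expression filter, with differences from -1.64 (Ckm) to 3.15 (Myod1). Chondrocyte markers were called in 3 of 7 cases, with Comp higher by 6.10 ± 1.20 and Col9a1 lower (-3.52 ± 0.62).

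The differences were then read against the loss of fibroblast transcripts in the non-primed libraries. The mean fibroblast marker difference was 5.79, and 363 tested genes had a larger one. When the mean of the fibroblast markers was subtracted from each library, 6 of 16447 genes (0.0365%) were higher in primed libraries and 14428 (87.7%) lower, with a median of -5.74. The subtraction lowers every difference by 5.79, so this median and the large share of lower calls follow from the scale itself. The 6 were U90926 (3.38 ± 1.22), Cxcl3 (3.29 ± 1.27), Il1b (3.14 ± 1.25), Il1a (2.96 ± 1.24), Thbs4 (2.71 ± 1.33) and Clec4e (2.56 ± 1.24), here in units above the fibroblast markers. Other mediators did not pass on this scale. The count rests on few libraries. It was 0 without primed library 2, primed library 3 or non-primed library 1, and 127 without non-primed library 3, the library with the least fibroblast transcript. This scale shows unequal change only, since the markers themselves may differ per cell.

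Differences were not spread evenly over the chromosomes. Chromosome 6 had the most falls, with 36.5% of its 843 tested genes lower and 21.2% higher, against 21.2% and 27.7% over all genes, and chromosome 14 the most rises, with 39.2% of 561 genes higher and 13.5% lower. The comparison was repeated on the 6362 genes with a mean of at least 11 over the 6 libraries, a level chosen after the values were seen. There the median over all chromosomes was -0.03, and on chromosome 6 it was -0.52 over 332 genes. The medians of chromosome 6 were -0.46, -0.51 and -0.47 when the primed mean was set against non-primed libraries 1, 2 and 3, so the shift was alike in all 3 although library 3 differed from the others elsewhere. Chromosome 14 had 0.26, 0.29 and 0.31, and chromosome 15 had -0.24 in each. Neighbouring genes are not independent, and no test was made of these medians. Met and Mitf, given above, lie on chromosome 6, while Tyrp1, Dct and Tyr do not.

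**Figure D5:**
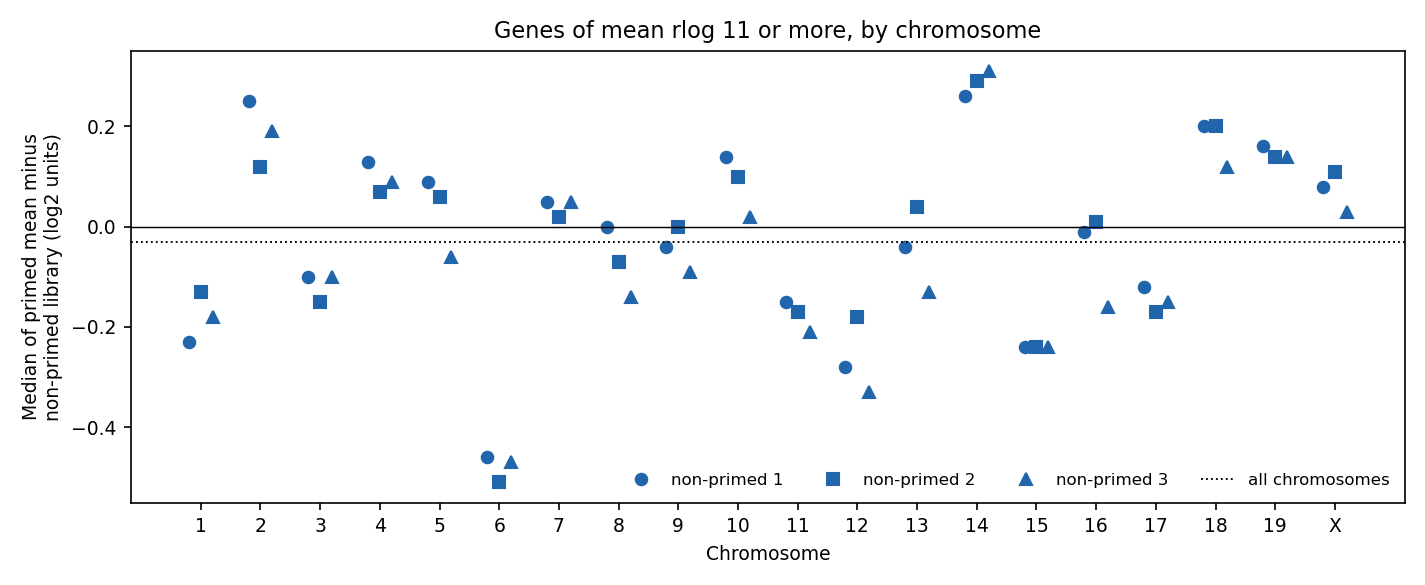
Median difference per chromosome (vertical axis, mean of the primed libraries minus each non-primed library, in log2 units) for genes averaging at least 11 in rlog units, by chromosome (horizontal axis), with a marker shape per non-primed library and the median over all these genes as a dotted line. Chromosome 6 lies at -0.46 to -0.51 and chromosome 14 at 0.26 to 0.31 for the 3 libraries.

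Genes read from a single chromosome copy were examined next. Xist, the RNA of the inactive X chromosome, had 13.83, 14.50 and 14.43 in primed libraries, against 9.40, 9.59 and 5.02 in non-primed libraries (6.25 ± 1.19, limma adjusted p = 0.00579), while the median of X-linked genes of high level was 0.06. The Y-linked genes examined were below the expression filter. Of 21 imprinted genes, which are read from the copy of a single parent, 14 rose and 2 fell (median 2.61). Meg3 (6.58 ± 0.87) and Rian (6.35 ± 1.07), long RNAs of a shared imprinted cluster, rose together with Dlk1 of the same cluster. Plagl1, an imprinted zinc finger factor, had 11.15, 11.93 and 10.89 in primed libraries, against 15.22, 14.76 and 15.69 in non-primed libraries (-3.89 ± 0.34, adjusted p = 0.000426). Peg10 fell by 3.62 ± 0.90 on the log2 scale, with 15.14 in non-primed library 3 against 11.55 and 12.18 in non-primed libraries 1 and 2, and its call was lost without primed library 2 or primed library 3 (adjusted p up to 0.0557).

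Within the non-primed group library 3 stood apart in both directions. The mean absolute deviation of a library from the others of its group was 0.311 to 0.342 in the primed group, and 0.453, 0.52 and 0.807 for non-primed libraries 1, 2 and 3. Among the genes lowest in it relative to libraries 1 and 2 were Aire, the thymic regulator of self-antigens, with 2.16 against 10.55 and 9.78, the insulin-like growth factor binding protein gene Igfbp5, with 4.08 against 10.79 and 12.00, and Col18a1, a basement membrane collagen, with 5.46 against 12.06 and 12.75. Among those highest in it were Strip2, with 10.44 against 6.11 and 5.72, and Serpini1, with 11.18 against 7.30 and 7.42. None of these 5 genes was called between the groups with all 6 libraries, and all but Igfbp5 were called without non-primed library 3. In the primed group library 1 was the farthest from the others. It was low in the cartilage genes Comp, with 10.62 against 14.65 and 13.41, and Col2a1, with 6.62 against 11.18 and 9.75, and high in Grik3, a glutamate receptor gene, with 8.46 against 3.44 and 5.32. These genes were picked by their values and carry no test of the difference within a group.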

How the data were processed

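The deposited table holds log2 expression values after the authors' rlog transform. The tools named beside GRCm38, per the submitters' processing notes, include DESeq2 1.24.0, STAR 2.6.1c, cutadapt 1.18 and Subread 1.6.1 (featureCounts). Their settings, the annotation and the strand setting of counting were not given in the sources used here, so overlapping antisense genes and near-identical copies are uncertain. Genes with a mean of at least 3 over 12 libraries were tested with limma 3.58.1 in R 4.3.3 on the 6 libraries (lmFit, eBayes with a variance trend, Benjamini-Hochberg adjustment, adjusted p under 0.05). Libraries of the other groups stayed out of the fit, since one of those groups holds 2 kinds of library. On a second scale the library's mean over 12 fibroblast markers was subtracted. The comparison and all 66 gene lists were chosen with earlier results of these data known. The genes named are the 12 largest called rises and falls with groups that do not overlap, up to 4 called members of each list with the largest differences and those against its majority, the fibroblast and melanocyte markers, a fixed set of inflammatory, metabolic and BET genes, highly expressed genes, and genes that set a library apart. Alternatives were other filters, all 12 libraries, no trend, robust moderation, array weights, a replicate block, other scalings, other marker sets and leaving out each library. Promoters came from RefSeq (GRCm38.p6), and gene positions from GENCODE on GRCm38. Some genes that this rule covers are not reported here.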

Additional observations from a re-analysis of the deposited data

How the results depend on the processing

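Calls on the plain scale numbered 3635 to 5100 higher and 2472 to 4056 lower in primed libraries when each library was left out. Quantile normalization raised the lower calls to 5308, and under it the small rises of Rab1a and Txn1 turned to -0.03 and -0.01, neither called. Relative to the fibroblast markers, the 6 higher calls became 2 with all 12 libraries in the fit, 366 with array weights, 3 with the replicate block, and 0 to 127 when each library was left out. The lower calls on that scale were 33837 with no filter on low values, where more genes were tested. The labels do not say whether primed and non-primed libraries of the same number come from the same mice. The correlations of their deviations were 0.069, -0.125 and -0.099, and the replicate block gave 4063 higher and 2798 lower calls on the plain scale. Of the 353 called genes that the naming rule covers, 277 kept their call whichever library was left out. The cause of these changes was not tested. Depth is unknown, and 3 pooled cultures per group limit the precision.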
